A study of Mus musculus with 15 samples.

Results

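The 10 genes described here encode the muscle atrophy ubiquitin ligases and their relatives (Fbxo32, Trim63, Fbxo30 and Fbxo31), the FoxO transcription factors (Foxo1, Foxo3 and Foxo4) and proteins of autophagy and mitophagy (Map1lc3b, Bnip3 and Sqstm1). They were chosen by gene symbol, 10 of 56953 genes in the deposited tables, and each symbol had 1 row. Bulk RNA sequencing covered 15 libraries of wild-type (WT) 129 mice, labelled as 10-week-old males. The groups were MuSCs (muscle stem cells, the satellite cells that repair skeletal muscle) taken by biopsy after autologous MuSC transplantation from an area that received no cells (3 libraries, mice 5, 6 and 11), MuSCs of the same mice before transplantation (3 libraries), quadriceps femoris muscle of transplanted mice (6 libraries) and quadriceps femoris muscle of sham-operated mice (3 libraries). MuSCs for transplantation came from a biopsy, and the interval after surgery is not given in the labels. The treatment label of the sham muscles also reads as after transplantation, so their group rests on their titles. A library is called by its group with the mouse number in its title (after 5, sham 12). The labels give 10 mice for the whole study, and each number was read as 1 mouse.

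Total estimated counts were 17.09 M to 22.98 M per library. The muscle libraries came in 2 tables, 1 with 2 shams (3 and 192) and 3 transplanted mice (4, 14 and 94), and 1 with a single sham (12) and 3 transplanted mice (5, 6 and 11), called the 2-sham and the 1-sham table. The MuSC libraries fell apart by the form of their names in the labels' description: names that start with the mouse number (after 5, before 5 and before 11) against names that start with F (after 6, after 11 and before 6). What the name form stands for is not given in the labels, and over all 13512 genes tested the libraries of the 2 forms did not overlap in 56.8%. The label of male is at odds with sex-linked transcripts: Xist was at 2.63 to 84.08 TPM in 14 of 15 libraries, and 4 Y-linked genes summed to at most 0.31 TPM in every library. The exception for Xist was transplanted 4 (0.01 TPM). In MuSCs Xist was at 44.45 to 84.08 TPM where names start with the number and at 2.63 to 10.22 TPM where they start with F. Mouse 11 thus had 84.08 TPM in before 11 and 2.63 TPM in after 11, and the cause was not tested. Libraries matched their labelled source. Myod1, a myogenic regulator of MuSCs, was at 532.1 to 957.82 TPM in MuSCs and 11.01 to 19.91 TPM in muscle. Pax7, another MuSC marker, was at 11.83 to 21.57 TPM in MuSCs and 0.06 to 0.26 TPM in muscle. Ckm, the creatine kinase of mature fibres, was at 1.08 to 65.28 TPM in MuSCs and 14844.64 to 21517.63 TPM in muscle. Whether the MuSCs were quiescent or activated was not tested.

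In skeletal muscle, protein is broken down by the ubiquitin-proteasome system and by autophagy. FoxO factors stay in the cytoplasm while insulin and IGF signals act through Akt, and enter the nucleus when these signals fall, as in fasting or disuse. There they induce Fbxo32 (atrogin-1) and Trim63 (MuRF1), ligases that mark muscle proteins for the proteasome, together with autophagy genes. The same factors are known in MuSCs for keeping the cells quiescent.

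The window of 250 bases before and 50 bases after the annotated start (RefSeq, GRCm38.p6) was found for 8 of the 10 genes, and Fbxo32 and Foxo4 had no entry in the table used. Of those 8 windows, 1 held the FoxO core letters GTAAACA on either strand, that of Trim63, against 3.65% of 32851 windows of all genes. Another 1, that of Bnip3, held the E-box CACGTG, against 7.15% of all windows. No window of the 8 held both motifs. These 2 windows are shown because each held a match and both genes lay lower in MuSCs than in muscle. Both are written 5′ to 3′ on the gene's strand with the motif in capitals. A match is a description of the letters and not a measured binding site.
Trim63, chr4:134314870-134315169, plus strand: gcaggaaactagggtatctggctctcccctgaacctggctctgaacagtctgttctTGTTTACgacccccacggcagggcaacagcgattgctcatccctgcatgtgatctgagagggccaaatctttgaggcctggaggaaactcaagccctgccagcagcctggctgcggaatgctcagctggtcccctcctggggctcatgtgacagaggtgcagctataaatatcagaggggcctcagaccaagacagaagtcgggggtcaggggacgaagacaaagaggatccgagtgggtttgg
Bnip3, chr7:138909457-138909756, minus strand: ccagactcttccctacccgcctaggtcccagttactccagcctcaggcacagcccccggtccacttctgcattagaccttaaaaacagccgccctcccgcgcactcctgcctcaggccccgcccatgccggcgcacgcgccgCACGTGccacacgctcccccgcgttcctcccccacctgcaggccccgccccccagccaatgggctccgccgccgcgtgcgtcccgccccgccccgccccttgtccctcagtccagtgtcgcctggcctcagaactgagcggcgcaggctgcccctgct

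Fbxo32, Trim63, Fbxo31, Foxo4 and Bnip3 were lower in every MuSC library than in every muscle library and Sqstm1 was higher, while Fbxo30, Foxo1, Foxo3 and Map1lc3b overlapped. Levels are given in TPM, the authors' values per gene length and per library total. MuSC and muscle libraries stand in different tables, so cell source and table cannot be told apart and no test was made between them. In these bulk samples fewer cells of a type and less RNA per cell cannot be told apart either. Libraries of MuSCs lay below all muscle libraries in 5 of the 10 genes and above them in 1. Over 13776 genes with a mean of at least 1 TPM in MuSCs or muscle, 16.2% lay wholly lower and 40.9% wholly higher in MuSCs, 57.1% together.

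Fbxo32, the F-box subunit atrogin-1, had the widest gap between the sources among the 10 genes. It was at 1.71, 0.61 and 1.32 TPM in after 5, 6 and 11 and at 2.26, 0.62 and 1.41 TPM in before 5, 6 and 11. In muscle it was at 42.89 to 96.8 TPM in transplanted mice (median 61.0 TPM) and at 61.22, 71.19 and 94.38 TPM in sham 3, 192 and 12. Its mean in MuSCs was 1.92% of its mean in muscle, and it stood at the 32.3rd to 44.6th percentile of detected genes in MuSCs and at the 92.0th to 96.1st in muscle. The 6 MuSC libraries held 71 to 259 counts of Fbxo32 each, so the low level rests on counts well above 0.

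Trim63, the RING-finger ligase MuRF1 of the sarcomere, followed the same order at a higher level. It was at 6.59, 3.79 and 3.65 TPM in after 5, 6 and 11 and at 10.34, 7.26 and 6.15 TPM in before 5, 6 and 11. In transplanted muscle it ranged from 81.81 to 224.22 TPM (median 129.0 TPM), and it was at 105.03, 120.23 and 168.52 TPM in sham 3, 192 and 12. Trim63 in MuSCs averaged 4.73% of its muscle mean. Transcripts of mature fibres were also present in the MuSC libraries, and the 10 myofibre markers summed to 903 to 12200 TPM there and to 110000 to 149000 TPM in muscle. Their single means in MuSCs ran from near 0 (Pvalb) to 20.2% (Mylpf) of the muscle means. Mylpf and Acta1 (10.2%) lay above both ligases and Myh1 (2.02%) between them. The rest lay below both: Tnnt3 (1.73%), Tcap (0.891%), Ckm (0.192%), Atp2a1 (0.146%), Myh2 (0.112%), Myh4 (0.0106%) and Pvalb. The part of these fibre transcripts in the MuSC values of Fbxo32 and Trim63 was not tested.

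Fbxo31, an F-box protein known for targeting cyclin D1, averaged 7.98 ± 3.44 TPM in MuSCs (SD, n = 6) and 62.2 ± 9.94 TPM in muscle (n = 9) with no overlap. Fbxo30 (MUSA1), a ligase known to be held down by BMP signals in muscle, went the other way in its mean, at 6.93 ± 4.73 TPM in MuSCs and 3.51 ± 0.676 TPM in muscle, but its libraries overlapped. Its MuSC values spread widely, at 11.89, 3.17 and 1.02 TPM in after 5, 6 and 11 and at 9.07, 4.34 and 12.1 TPM in before 5, 6 and 11. The 3 lowest were the libraries whose names start with F.

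**Figure D1:**
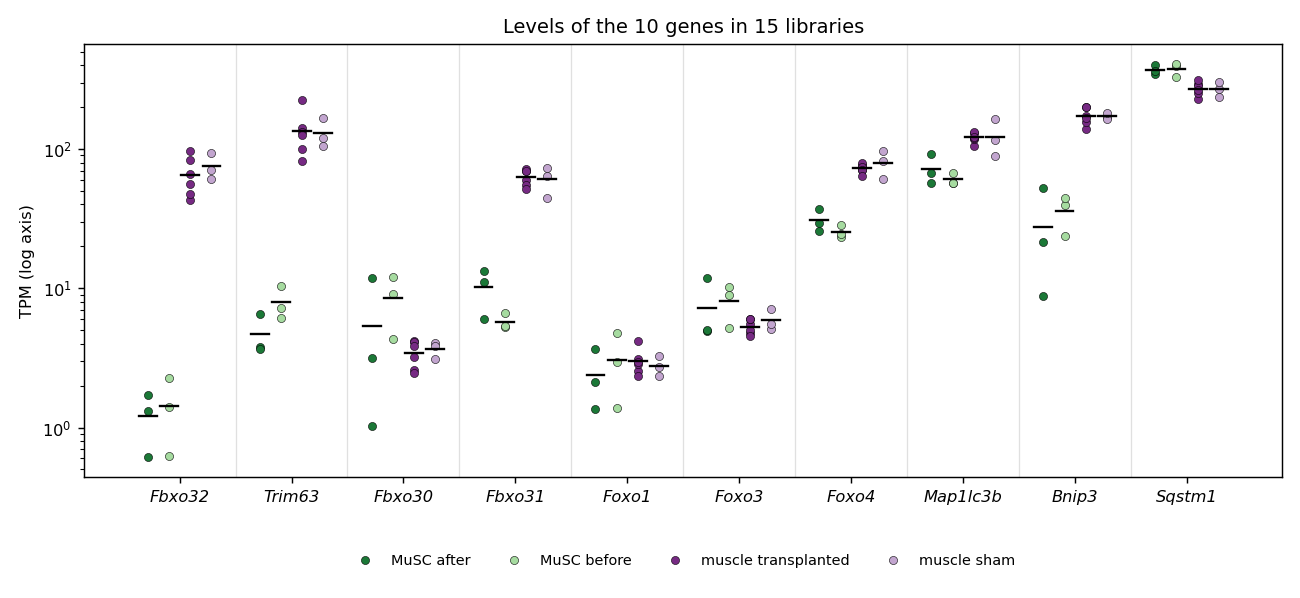
TPM (log axis) of the 10 genes in each library, by group, with a line at each group's mean. Fbxo32, Trim63, Fbxo31, Foxo4 and Bnip3 lie lower in all MuSC libraries than in all muscle libraries, Sqstm1 lies higher, and Foxo1, Foxo3, Fbxo30 and Map1lc3b overlap.

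Among the FoxO factors, Foxo4 had the highest level per length in every library. Foxo4, the X-linked member, was at 25.87, 29.63 and 37.29 TPM in after 5, 6 and 11 and at 28.69, 23.43 and 24.54 TPM in before 5, 6 and 11. It was at 64.33 to 78.91 TPM in transplanted muscle (median 72.6 TPM) and at 60.47, 82.41 and 96.26 TPM in sham 3, 192 and 12, so MuSCs averaged 37.6% of muscle without overlap. Foxo1 averaged 2.72 ± 1.36 TPM in MuSCs (SD, n = 6) and 2.93 ± 0.573 TPM in muscle (n = 9). Foxo3, the member best known for driving autophagy in muscle, averaged 7.7 ± 3.06 TPM in MuSCs and 5.5 ± 0.779 TPM in muscle. In TPM the libraries of the 2 sources overlapped for Foxo1 and for Foxo3. By percentile of detected genes Foxo3 stood at the 55.7th to 63.6th in MuSCs and at the 63.7th to 68.3rd in muscle.

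As a share of the summed TPM of Foxo1, Foxo3 and Foxo4, Foxo4 made up 76.2 ± 12.1% in MuSCs after and 70.4 ± 6.84% in MuSCs before (SD, n = 3 each). It made up 89.8 ± 1.34% in transplanted muscle (n = 6) and 90.1 ± 0.874% in sham muscle (n = 3). The lowest muscle library stood at 87.4% and the highest MuSC library at 85.4%, so the share did not overlap between the sources. Foxo3 made up 11.5 to 28.7% in MuSCs and 5.72 to 7.48% in muscle, and the 3 highest Foxo3 shares were in the MuSC libraries whose names start with the mouse number. These are shares of transcripts, and the protein and its place in the cell were not measured.

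**Figure D2:**
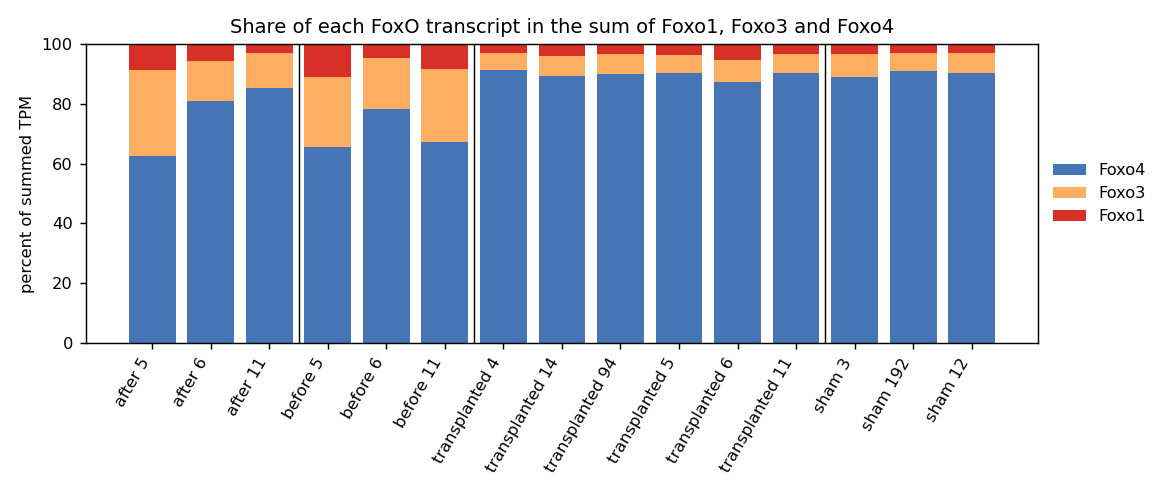
Percent of the summed TPM of Foxo1, Foxo3 and Foxo4 that each gene makes up, 1 bar per library, in the order MuSC after, MuSC before, transplanted muscle and sham muscle. Foxo4 holds 62.5 to 85.4% in MuSCs and 87.4 to 91.3% in muscle.

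Sqstm1 (p62), the autophagy receptor that links ubiquitinated cargo to the autophagosome, had the highest level of the 10 genes in every group. It averaged 373 ± 33.8 TPM in MuSCs (SD, n = 6), where it ranged from 327.11 to 410.47 TPM, and 271 ± 28.9 TPM in muscle (n = 9), where it ranged from 227.05 to 312.38 TPM. It was the 1 gene of the 10 that lay higher in TPM in all MuSC libraries. By percentile of detected genes Sqstm1 overlapped, at the 97.8th to 98.4th in MuSCs and the 98.3rd to 98.6th in muscle. Map1lc3b (LC3B), which coats the autophagosome membrane, averaged 66.4 ± 13.9 TPM in MuSCs and 122 ± 20.4 TPM in muscle, and after 11 (92.76 TPM) overlapped with sham 3 (89.1 TPM). Bnip3, a mitophagy receptor of the outer mitochondrial membrane, averaged 31.8 ± 16.5 TPM in MuSCs and 173 ± 19.9 TPM in muscle without overlap, with its lowest value, 8.78 TPM, in after 11.

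Within muscle the order of levels was the same in transplanted and sham mice: Sqstm1, Bnip3, Trim63, Map1lc3b, Foxo4, Fbxo32, Fbxo31, Foxo3, Fbxo30 and Foxo1 from high to low. Neighbours from Bnip3 to Map1lc3b overlapped between libraries in both groups, and so did Foxo4, Fbxo32 and Fbxo31, while Fbxo31 and Foxo3 stood apart by a wide gap (at least 51.67 TPM against at most 6.02 TPM in transplanted mice). In MuSCs Sqstm1 and Map1lc3b came first in both groups and Fbxo32 last. Fbxo31 and Map1lc3b lie close together on chromosome 8 (GRCm38.p6), on opposite strands, with 11.1 kb and 2 other RefSeq genes between their start windows, and their MuSC-to-muscle gaps differed, with MuSC means at 12.8% of muscle for Fbxo31 and 54.6% for Map1lc3b.

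The first comparison asked how the leg muscle of transplanted mice stood against that of sham-operated mice. Values here are CPM, counts scaled to a common total by TMM, and log2 differences are on that scale. None of the 10 genes passed: edgeR's quasi-likelihood test gave adjusted p-values of 0.686 to 0.981, and it called 0 of all 14375 genes (0.0%) at an adjusted p under 0.05. At an unadjusted p under 0.05 stood 1018 genes (7.08%, 3.01% higher and 4.08% lower in transplanted muscle), of which 1 was a member, Fbxo31. The 7 genes called by DESeq2 (0.0564%) included 0 members. Of the 10 log2 differences, 8 were positive and 2 negative (median 0.11, against 0.0 over all genes).

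The mean of Fbxo32 was 402 ± 125 CPM in transplanted mice (SD, n = 6), against 410 ± 57.4 CPM in shams (n = 3), and the log2 difference was -0.07 ± 0.22 (SE). The transplanted libraries enclosed the sham values, with 246 CPM in transplanted 14 and 610 CPM in transplanted 6 at the ends, and 365, 391 and 475 CPM in sham 3, 192 and 12. The mean of Trim63 was 200 ± 79.0 CPM in transplanted mice, against 170 ± 30.1 CPM in shams (0.08 ± 0.19). Its ends were also transplanted 14 (112 CPM) and transplanted 6 (342 CPM), with shams at 149, 158 and 205 CPM. For both ligases the spread among transplanted libraries, with the tables pooled, was wider than the difference between the groups. The coefficient of variation was 31.1% for Fbxo32 and 39.5% for Trim63. Fbxo32 overlapped between the tables, but Trim63 in transplanted mice did not. Trim63 was at 147, 112 and 181 CPM in transplanted 4, 14 and 94. In transplanted 5, 6 and 11 it was at 208, 342 and 212 CPM. The 39.5% thus includes a gap between tables, whose cause was not tested. The difference of 0.08 has the table as a term, while the group means do not.

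Fbxo31 had the largest difference relative to its error among the 10 genes. It was at 144, 144 and 141 CPM in transplanted 4, 14 and 94 and at 145, 169 and 138 CPM in transplanted 5, 6 and 11, against 102, 140 and 121 CPM in sham 3, 192 and 12. The groups overlapped at transplanted 11 and sham 192, and the log2 difference of 0.27 ± 0.11 did not pass (edgeR unadjusted p = 0.0314, adjusted p = 0.686, with 0.277 to 1 over 15 alternatives). The remaining ligase, Fbxo30, differed by 0.11 ± 0.11, at 14.8 ± 2.61 CPM in transplanted muscle, against 14.5 ± 3.10 CPM in shams. Transplanted and sham libraries overlapped in all 10 genes, where 2.11% of all genes tested did not overlap (1.15% higher and 0.96% lower in transplanted muscle).

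For Foxo1 the means were 23.2 ± 5.18 CPM in transplanted mice and 19.0 ± 1.57 CPM in shams (0.23 ± 0.14), with 33.0 CPM in transplanted 6 and at most 24.4 CPM in any other muscle library. Foxo3 was nearly level, at 31.7 ± 2.44 and 31.5 ± 2.87 CPM in transplanted and sham muscle (-0.01 ± 0.08). Foxo4 ranged from 175 to 209 CPM in transplanted muscle and was at 155, 194 and 209 CPM in sham 3, 192 and 12 (0.03 ± 0.10). The ratio of Foxo3 to Foxo1 TPM within a library, which does not depend on scaling between libraries, was 1.89, 1.76, 2.11, 1.67, 1.44 and 1.92 in transplanted 4, 14, 94, 5, 6 and 11 and 2.17, 2.03 and 2.15 in sham 3, 192 and 12. It was below all shams in 5 of 6 transplanted libraries, and its log2 difference of -0.22 within tables did not pass (exact 2-sided permutation p = 0.1 over 40 arrangements, where the smallest possible is 0.025). Without sham 12 it was -0.106, but that leaves no sham in the 1-sham table. The transplanted libraries of that table then carry no contrast and only make the value smaller.

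None of the autophagy genes passed. Map1lc3b stood at 184 ± 20.6 CPM in transplanted mice and 160 ± 30.4 CPM in shams (0.16 ± 0.09), Bnip3 at 232 ± 31.0 and 205 ± 10.6 CPM in transplanted and sham muscle (0.15 ± 0.11), and Sqstm1 at 422 ± 56.9 and 376 ± 20.7 CPM in transplanted and sham muscle (0.12 ± 0.10). Without sham 12 the differences of Bnip3 and Sqstm1 were 0.027 and 0.024, and without sham 3 that of Map1lc3b was 0.073. Leaving out sham 12 leaves no sham in the 1-sham table, so those values of Bnip3 and Sqstm1 rest on the contrast of the 2-sham table. On the TPM scale the median log2 difference of all genes moved from 0.0 to -0.20, and 6 of the 8 positive differences among the 10 genes turned negative with it (all but Fbxo31 and Foxo1), so the signs of differences this small rest on the scaling. Markers of other cell types also varied among the 9 muscle libraries, with 0 called. The 7 adipocyte markers summed to 156 to 626 TPM in transplanted muscle and to 212 to 1440 TPM in sham muscle, highest in sham 12 among shams and in transplanted 6 among transplanted mice. In the edgeR fit, 7 of 7 adipocyte markers were negative (median -1.29, 6 at an unadjusted p under 0.05). So were 6 of 8 fibroadipogenic markers (median -0.37, 4 at that level) and 8 of 8 macrophage markers (median -0.28, 0 at that level). The 5 of 5 tested tenocyte markers were negative too (median -0.59, 2 at that level). Over all genes, 4.08% were lower at that level. Endothelial markers were negative in 4 of 7 (median -0.02), while 10 of 10 myofibre markers were positive (median 0.19). No marker of these lists was at 0 in all libraries of a group, and their part in the values of the 10 genes was not tested. No difference between the 2 tables in the transplanted-minus-sham contrast passed for any of the 10 genes (edgeR interaction adjusted p 0.724 to 0.978, and 0 of 14375 genes called, 0.0%, with 1342, 9.34%, at an unadjusted p under 0.05). In that test the 1-sham table has the single sham 12, which is assumed to vary like the libraries of the other groups.

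**Figure D3:**
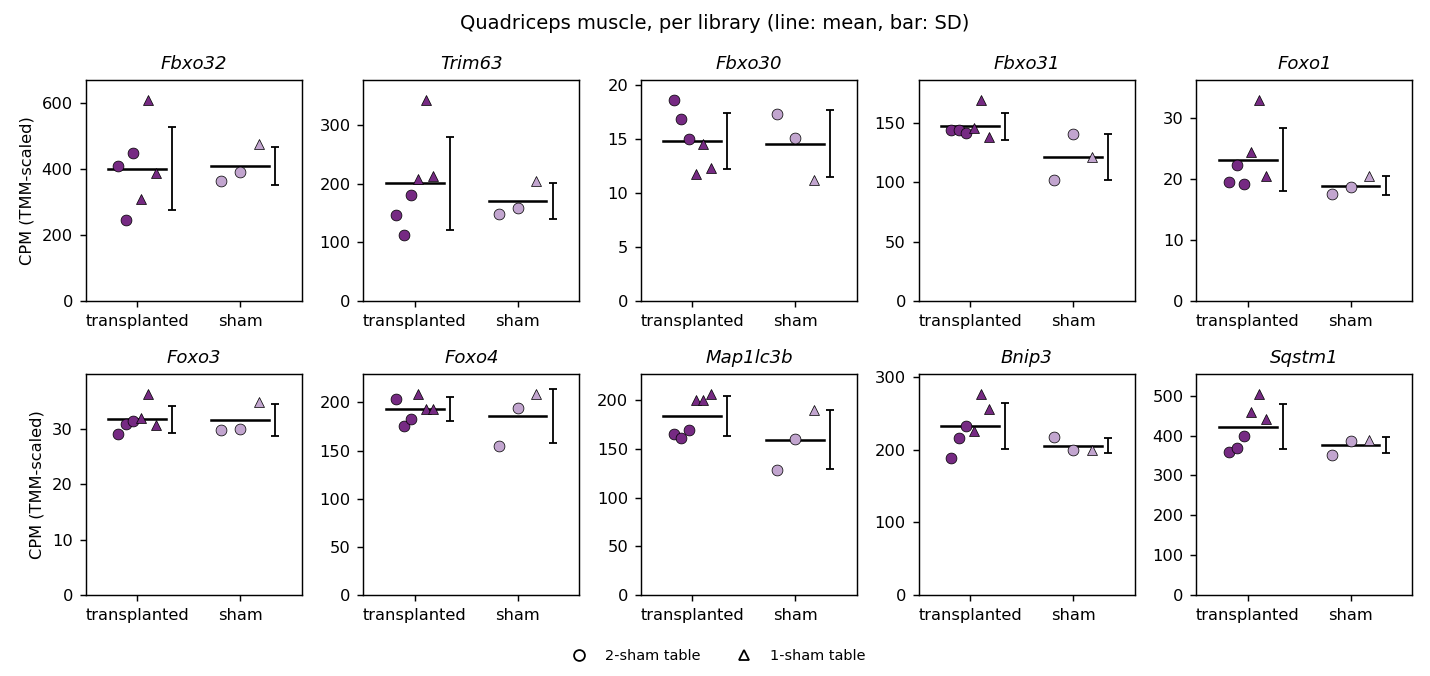
TMM-scaled CPM of the 10 genes in each muscle library, transplanted (left) and sham (right) in each panel, circles for the 2-sham table and triangles for the 1-sham table, with the mean (line) and SD (bar). Groups overlap in all 10 panels, and transplanted 6 is the top point for Fbxo32, Trim63, Fbxo31, Foxo1, Foxo3, Bnip3 and Sqstm1.

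Fbxo32 and Trim63 were high and low in the same muscle libraries. Over the 9 muscle libraries, with each table's mean removed from log2(TPM + 0.1), their Pearson r was 0.90 and Spearman's rho 0.92 (exact permutation within tables, p = 0.0059 and 0.00313, adjusted 0.0354 and 0.0188 over 6 pairs among Fbxo32, Trim63, Foxo1 and Foxo3). Without transplanted 14 and 5, the 2 libraries farthest from the median of Fbxo32, r was 0.89 (exact permutation p = 0.0139, adjusted 0.0417). Within the tables r was 0.95 over 5 libraries and 0.88 over 4, and among the 6 transplanted libraries it was 0.95, values given as a description with no test. With CPM in place of TPM r was 0.85 and missed the threshold (exact permutation, adjusted p = 0.0583).

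Neither ligase was shown to vary with Foxo1 or Foxo3 transcripts. For Fbxo32, r was 0.41 with Foxo1 and 0.68 with Foxo3, and rho was 0.42 and 0.70 (exact permutation, adjusted p = 0.427 and 0.216 for r, 0.33 and 0.172 for rho). For Trim63, r was 0.57 with Foxo1 and 0.62 with Foxo3, and rho was 0.45 and 0.70 (adjusted p = 0.217 and 0.216 for r, 0.33 and 0.151 for rho, exact permutation). Foxo1 and Foxo3 had an r of 0.69 and a rho of 0.75 with each other (exact permutation, adjusted p = 0.216 and 0.15). The relation of Fbxo32 to Foxo1 turned on single libraries: transplanted 14 and 5 had low Fbxo32 with Foxo1 near or above its mean, and without them r was 0.92 (exact permutation, adjusted p = 0.0417). It was -0.36 over the 5 libraries of the 2-sham table and 0.74 over the 4 libraries of the 1-sham table. For Trim63 and Foxo1 the r within the tables was -0.18 and 0.94, and without transplanted 94 and 6 it was 0.10.

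**Figure D4:**
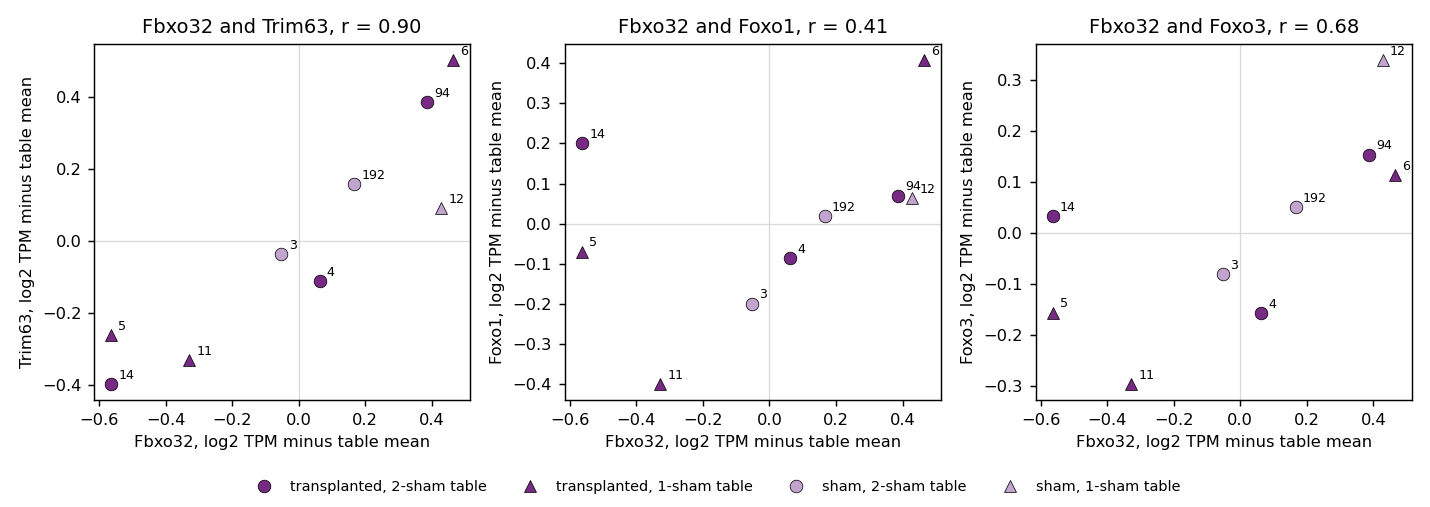
log2(TPM + 0.1) minus the table mean of Trim63, Foxo1 and Foxo3 (vertical axes) against that of Fbxo32 (horizontal axis) in the 9 muscle libraries, labelled by mouse number. Trim63 follows Fbxo32 (r = 0.90), while transplanted 14 and 5 lie at the left with Foxo1 at 0.2 and -0.07.

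The ratio of Fbxo32 to Trim63 TPM was 0.665, 0.524 and 0.589 in transplanted 4, 14 and 94, against 0.583 and 0.592 in sham 3 and 192. In the 1-sham table it was 0.359, 0.432 and 0.444 in transplanted 5, 6 and 11, against 0.56 in sham 12. The log2 difference within tables was -0.17 and did not pass (exact 2-sided permutation p = 0.225), and without sham 12 it was 0.005. Leaving out sham 12 leaves no sham in the 1-sham table, so the latter value holds no contrast from that table. Among 6775 genes with a mean of at least 5 TPM in muscle, the 3 most like Fbxo32 over the 9 libraries were Wapl, Mak16 and Ptpn4 (r of 0.97, 0.97 and 0.96, rho of 0.97, 0.95 and 0.93), and Trim63 ranked 40. The 3 most like Trim63 were Arntl, Ugp2 and Pdlim5 (r of 0.96, 0.95 and 0.93, rho of 0.93, 0.90 and 0.83), of which Arntl encodes the clock factor BMAL1 and Ugp2 an enzyme of glycogen synthesis, and Fbxo32 ranked 10. These are the extremes of a ranking over 9 libraries and are given as a description.

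The other comparison asked how MuSCs from tissue that received no cells compared, once the mice had been transplanted, with MuSCs taken from them earlier. None of the 10 genes passed (edgeR adjusted p 0.873 to 0.995). Of all 13512 genes edgeR called 0 (0.0%), while 305 (2.26%, 1.55% higher and 0.71% lower after) had an unadjusted p under 0.05, 0 of the 10 among them. The 16 genes called by DESeq2 (0.119%) included 0 members. Of the 10 log2 differences 5 were positive and 5 negative (median -0.01, against 0.02 over all genes). After and before libraries overlapped in all 10 genes, where 6.33% of all genes tested did not overlap (3.35% higher and 2.98% lower after).

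Trim63 was the 1 gene of the 10 that went the same way in 3 of 3 mice, as 21.1% of all genes tested did (10.3% lower and 10.8% higher after). It was at 7.68, 6.81 and 6.78 CPM in after 5, 6 and 11, against 12.3, 12.7 and 7.55 CPM in before 5, 6 and 11, a log2 difference of -0.61 ± 0.34 (edgeR adjusted p = 0.873, 0.254 to 1 over 11 alternatives). After 5 lay just above before 11, so the groups overlapped. Of the 10 myofibre markers 9 were tested, and 9 of 9 differences were negative (median -0.80), with 0 called and 1 at an unadjusted p under 0.05. Their summed TPM overlapped between the groups, at 7250, 5100 and 903 in after 5, 6 and 11 and at 8340, 12200 and 3910 in before 5, 6 and 11. Their part in the Trim63 values was not tested. Fbxo32 did not share the direction, at 8.23, 4.47 and 9.99 CPM in after 5, 6 and 11 against 11.0, 4.44 and 7.06 CPM in before 5, 6 and 11 (0.01 ± 0.48).

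Fbxo31 had the largest log2 difference in MuSCs, 0.93 ± 0.46, and rested on 1 library. It was at 22.7, 22.0 and 56.8 CPM in after 5, 6 and 11, against 14.4, 24.2 and 14.8 CPM in before 5, 6 and 11, and without after 11 the difference was 0.33. Fbxo30 averaged 20.5 ± 17.1 CPM after and 31.5 ± 10.2 CPM before (SD, n = 3 each), a difference of -0.62 ± 0.66, with a 7.13-fold range among the 3 libraries after. Without after 5, which leaves only libraries with names that start with F after transplantation, its difference was -1.52, and without after 11 it was -0.18.

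Foxo1 averaged 18.1 ± 4.80 CPM after and 20.1 ± 8.46 CPM before (-0.15 ± 0.40), and Foxo3 41.3 ± 11.1 CPM after and 42.4 ± 6.48 CPM before (-0.04 ± 0.29). Foxo4 averaged 90.0 ± 34.3 CPM after and 61.7 ± 9.90 CPM before (0.54 ± 0.35), with 122 CPM in after 11 and 53.6 CPM in after 5, and without after 11 the difference was 0.266. The log2 ratio of Foxo3 to Foxo1 differed by 0.08 (exact 2-sided permutation p = 0.7, where 3 against 3 cannot go below 0.1). Map1lc3b averaged 158 ± 71.3 CPM after and 111 ± 23.5 CPM before (0.51 ± 0.38), and without after 11 the difference was 0.10. Bnip3 averaged 34.2 ± 18.5 CPM after and 47.0 ± 23.0 CPM before (-0.46 ± 0.54), which without before 6 was -0.02. Sqstm1 averaged 642 ± 170 CPM after and 580 ± 174 CPM before (0.14 ± 0.35).

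MuSC values also differed by the form of the library name. Libraries with names that start with the number did not overlap with those that start with F in 5 of the 10 genes in CPM, against 56.8% of all genes, a share near that of the members. Fbxo30 averaged 37.2 ± 6.47 CPM in number-first and 14.8 ± 8.53 CPM in F-first libraries (SD, n = 3 each), and Foxo3 48.6 ± 5.37 and 35.1 ± 1.08 CPM in number-first and F-first libraries. Sqstm1 averaged 470 ± 44.5 and 752 ± 27.5 CPM, Map1lc3b 98.2 ± 7.72 and 171 ± 56.6 CPM and Foxo4 55.4 ± 3.54 and 96.3 ± 24.6 CPM in number-first and F-first libraries. In TPM the same split left no overlap in 4 of the 10 genes, against 55.6% of all genes: Fbxo32, Fbxo30, Foxo1 and Foxo3, all higher in number-first libraries, and overlap in Foxo4, Map1lc3b and Sqstm1. With transplantation in the model, the name form gave no adjusted p under 0.05 for the 10 genes (edgeR adjusted p 0.0594 to 0.989), nor for any of 13512 genes (0.0%), while 41.2% had an unadjusted p under 0.05. With the name form as a term, the differences after transplantation were 0.67 for Fbxo31, 0.253 for Foxo4, -0.64 for Trim63 and -0.09 for Sqstm1. Those of Map1lc3b and Fbxo30 were 0.222 and -0.436.

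**Figure D5:**
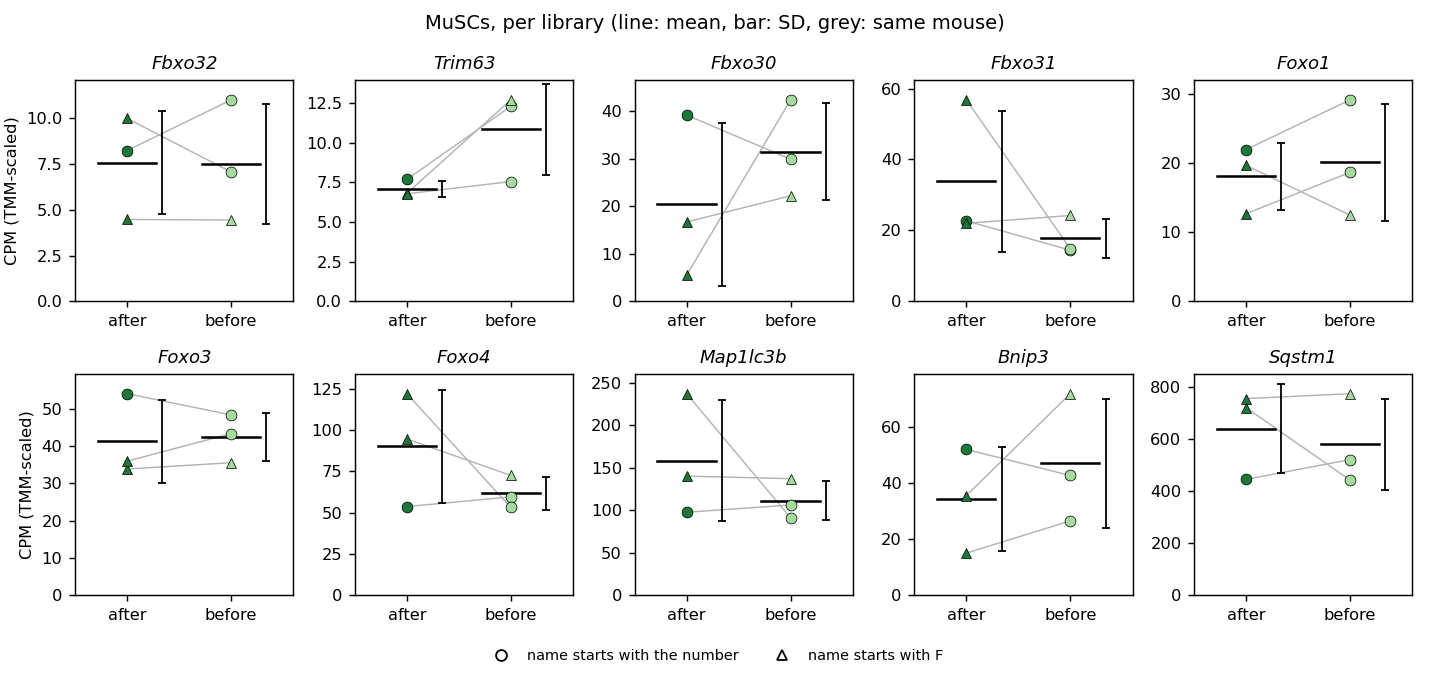
TMM-scaled CPM of the 10 genes in each MuSC library, after (left) and before (right) transplantation in each panel, joined by mouse, circles for names that start with the number and triangles for names that start with F, with the mean (line) and SD (bar). Trim63 is lower after in 3 of 3 mice, and for Foxo4, Map1lc3b and Sqstm1 the 3 F-first libraries lie above the 3 number-first ones.

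The other genes of these pathways were also measured, from 6 lists, and 0 members of any list passed in either comparison (background 0.0% in each, edgeR). In muscle, 27 of 31 proteasome subunits had positive differences (median 0.09, against 0.0 over all genes), with the lid subunit Psmd7 highest by F at 163 ± 16.1 CPM in transplanted muscle, against 144 ± 11.9 CPM in shams (0.14 ± 0.08) and the core subunit Psma5 lowest (-0.14 ± 0.08). Among other muscle ubiquitin ligases and ubiquitin genes 17 of 24 were positive (median 0.03). Fbxo40, a muscle F-box protein known to target Irs1, was highest at 518 ± 39.7 CPM in transplanted muscle, against 426 ± 33.7 CPM in shams (0.28 ± 0.10, edgeR adjusted p = 0.686), and Itch lowest (-0.11 ± 0.12). Among 36 autophagy and mitophagy genes 24 were positive (median 0.06), with Atg13, a subunit of the Ulk1 kinase complex, highest at 37.8 ± 1.53 CPM in transplanted muscle, against 31.6 ± 0.682 CPM in shams without overlap (0.26 ± 0.08, edgeR adjusted p = 0.686), and the conjugation enzyme Atg7 lowest (-0.23 ± 0.14).

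Lysosomal genes in muscle were positive in 11 of 18 (median 0.01; Neu1 0.24 ± 0.11, Atp6v1a -0.22 ± 0.08), and genes of insulin and Akt signalling in 10 of 16 (median 0.01; Akt1 0.16 ± 0.11, Ywhab -0.23 ± 0.11). FoxO and glucocorticoid targets were positive in 10 of 20 (median 0.01). Ddit4, an inhibitor of mTORC1, headed that list at 9.85 ± 3.26 CPM in transplanted muscle, against 2.89 ± 0.550 CPM in shams without overlap (1.77 ± 0.29, edgeR adjusted p = 0.423), while Sesn1 was lowest (-0.15 ± 0.09). At an unadjusted edgeR p under 0.05 stood 3 of 24 ligases and ubiquitin genes, 4 of 36 autophagy genes and 4 of 20 FoxO and glucocorticoid targets. All were higher in transplanted muscle, where 3.01% of all genes were. Of 18 lysosomal genes 2 stood there, both lower, where 4.08% of all genes were. Of the 31 proteasome subunits and the 16 insulin and Akt signalling genes none did. Each list median in muscle was smaller than the shift of the all-gene median to -0.20 on the TPM scale. The list signs are given on the CPM scale only.

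In MuSCs, proteasome subunits were positive in 23 of 31 (median 0.31, against 0.02 over all genes), led by Psma7 at 270 ± 163 CPM after and 155 ± 71.9 CPM before (0.80 ± 0.56), with Psmd6 lowest (-0.27 ± 0.25). Insulin and Akt signalling genes were negative in 11 of 16 (median -0.34), with the kinase Sgk1 highest (0.80 ± 0.44) and the docking protein Irs1 lowest (-0.62 ± 0.45). Of the muscle ubiquitin ligases and ubiquitin genes 15 of 24 were negative (median -0.15), with Asb2 lowest (-0.92 ± 0.51). Autophagy genes were positive in 18 of 35 tested (median 0.03; Optn 0.43 ± 0.25 and Bnip3l, the paralog of Bnip3, -0.61 ± 0.43). Lysosomal genes were positive in 10 of 18 (median 0.15; Gla 0.59 ± 0.38, Ctsb -0.34 ± 0.26) and FoxO and glucocorticoid targets in 6 of 17 tested (median -0.12; Cebpd 0.80 ± 0.51, Pdk4 -0.68 ± 0.50). The edgeR adjusted p of each gene named here for MuSCs was 0.873.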

How the data were processed

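The deposited tables hold 3 kinds of values per library. The authors' estimated counts are not all whole and were rounded here before testing. The authors' TPM and FPKM values are scaled for gene length and library total, per the file headers. The sources used here do not name the aligner, quantifier, annotation release or strand setting (not given). GRCm38 and mm10 stand in the submitters' processing notes, but none of the 10 genes had its GRCm38 coordinates in the tables, so the tables' coordinates are not printed. Another 3 columns matched no labelled sample and were not used.

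The members and gene lists were chosen with earlier results of these data known. edgeR 4.0.16 (filterByExpr, minimum count 10, TMM, quasi-likelihood test, Benjamini-Hochberg over all genes, threshold 0.05, 2-sided) compared 3 MuSC libraries after with 3 before, and 6 transplanted with 3 sham muscle libraries with the table as a term. The standard error is the log2 difference over the root of F. TPM entered correlations as log2(TPM + 0.1). FPKM in the authors' tables served only as an alternative for ratios. DESeq2 1.42.0 was an alternative. The fits were tested on simulated data. Of 100 genes changed by a log2 of 2, edgeR recovered 49 in the MuSC design and 100 in the muscle design. At a log2 of 3 it recovered 95 and 100 of 100. The MuSC comparison can thus miss changes of that first size. Of the unchanged genes, 9 were called in the MuSC design and 10 in the muscle design. Changes under a log2 of 2, which include every difference of the members, were not simulated in either design. The simulated spread followed the trend over all genes, with no effect of table or name form.

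The labels give mouse numbers 5, 6 and 11 in both MuSC groups and call the cells autologous. Libraries were paired by these numbers only for the per-mouse directions and for the alternative with the mouse as a replicate block. The main MuSC test and the MuSC ratio test were unpaired, with no mouse term. Deviations from the group means correlated at 0.30, 0.36 and -0.40 within mice 5, 6 and 11. Pairs from different mice ran from -0.68 to 0.55, so the pairing rests on the labels alone. By name form, pairs of the same form ran from 0.30 to 0.55. Pairs of different forms, the pair of mouse 11 among them, ran from -0.68 to -0.16. The 13 pairs of libraries of 1 group within a table differed beyond sampling noise (chi-square over its degrees of freedom of 18.25 or more); pairs across tables were not compared. Besides the 10 genes, named genes were the highest and lowest of each list by signed F, and the 3 most correlated with Fbxo32 and Trim63; 1 of these genes is not reported here.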

Additional observations from a re-analysis of the deposited data

Results flagged for a closer look

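In 12 sets of 6 transplanted muscle libraries tested for a single distant library (the 10 genes and 2 ratios), 2 had one, where chance gives about 1 in 20. Both were transplanted 6: Fbxo31 at 169 CPM, against 138 to 145 CPM in the other transplanted libraries, and Foxo1 at 33.0 CPM, against 19.2 to 24.4 CPM. In TPM transplanted 6 was still the highest for Foxo1 (4.19 TPM) but not for Fbxo31 (69.25 TPM, against 72.11 TPM in transplanted 94).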

How the results depend on the processing

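None of the 10 genes was called under any of the 11 MuSC alternatives, the 15 muscle alternatives or the 2 alternatives of the table interaction. Counts over all genes, 0 as reported, were 16 (MuSC) and 7 (muscle) with DESeq2, 12 in muscle and 103 for the interaction with no filter on low counts, 41 in the 1-sham table alone and 1 in the 2-sham table alone. In muscle they ran from 0 to 4 without single libraries (4 without sham 192, 2 without transplanted 94), and in MuSCs stayed at 0. The mouse as a replicate block called 0 genes and no member (Trim63 -0.58, Fbxo31 0.815). In muscle no paired analysis was possible because transplanted and sham mice share no number. Without after 5, MuSC genes at an unadjusted p under 0.05 numbered 3545 in place of 305, and without sham 12, muscle genes 499 in place of 1018. Leaving out sham 12 takes more than a single library from the contrast. The 1-sham table then has no sham, and the difference rests on the 2-sham table. Small differences changed sign: in MuSCs Fbxo32 was -0.016 with no filter, and with the name form as a term Foxo1 was 0.122, Foxo3 0.107 and Sqstm1 -0.092. In muscle Foxo3 was 0.008 with no table term and 0.024 in the 2-sham table, Trim63 -0.07 in the 2-sham table and Foxo4 -0.07 in the 1-sham table. Leaving out 1 library gave -0.253 to 0.375 for Fbxo32, -0.40 to 0.195 for Foxo1, -0.299 to 0.085 for Foxo3 and -0.026 to 0.417 for Sqstm1 in MuSCs, and -0.195 to 0.048 for Fbxo32, -0.046 to 0.029 for Foxo3, -0.062 to 0.102 for Foxo4 and -0.064 to 0.186 for Trim63 in muscle. It gave 0.027 to 0.217 for Bnip3, 0.024 to 0.181 for Sqstm1, 0.073 to 0.227 for Map1lc3b and 0.171 to 0.403 for Fbxo31 in muscle, and 0.266 to 0.794 for Foxo4 in MuSCs. The cause was not tested. The Fbxo32 to Trim63 correlation was 0.854 with CPM and no longer past the threshold, and that of Fbxo32 and Foxo1 was 0.918 and past it without transplanted 14 and 5. The log2 ratio of Fbxo32 to Trim63 ran from -0.228 to 0.005 without single libraries, and that of Foxo3 to Foxo1 from -0.139 to 0.275 in MuSCs and from -0.276 to -0.106 in muscle. The ends of 0.005 and -0.106 are those without sham 12, where the 1-sham table has no sham left and adds no contrast.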

Other observations

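Foxo6, the FoxO factor outside the 10 genes, was at 1.22 ± 0.730 TPM in MuSCs after and 1.69 ± 0.964 TPM in MuSCs before transplantation (SD, n = 3 each). It was at 2.93 ± 1.27 TPM in transplanted muscle (n = 6) and 2.86 ± 0.687 TPM in sham muscle (n = 3).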
